A study of Mus musculus with 12 samples.

Results

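Autotaxin, the product of Enpp2, and the lysophosphatidic acid (LPA) receptors Lpar1 to Lpar6 were followed through MC38 tumors of mice given a plant extract fraction, an anti-PD-1 antibody or both. These 7 genes were selected by symbol out of the 23282 gene rows of the count table, and Enpp2 was chosen by its low level in the tumors of the antibody group, so that its low values there are a description of that choice and carry no test. All 7 symbols were found. The filter on low counts left 13464 genes, among them 4 of the 7, namely Enpp2, Lpar1, Lpar4 and Lpar6.

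The tumors grew from MC38, a mouse colon carcinoma cell line, injected subcutaneously at the right flank of wild-type C57BL/6 females bought at 6 weeks of age and acclimated before use. Control mice (Con) received saline with the solvents DMSO and Tween 80, and an IgG2a isotype antibody. The SFIH group received the isotype antibody and the sesquiterpene lactone-rich fraction of the root of Inula helenium, at 50 mg/kg into the peritoneum each day, the PD group received 200 μg of anti-PD-1 antibody, and the Comb group received both. Tumors were taken at day 19, with 3 tumors in each of the 4 groups and 1 library per tumor, and p-values measure the spread between these tumors. MC38 stands here for a single cell line in a host with its own immune system. The samples are labelled as tumor cells, but the RNA came from whole tumor tissue, and it held markers of many host cell types.

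Autotaxin is a secreted lysophospholipase D that removes the choline head group of lysophosphatidylcholine and so makes LPA, a signaling lipid of blood and tissue fluid. LPA acts through G protein-coupled receptors of separate families, with Lpar1, Lpar2 and Lpar3 close to the sphingosine 1-phosphate receptors and Lpar4, Lpar5 and Lpar6 closer to the purinergic receptors. The receptors couple to G proteins that drive phospholipase C and phosphoinositide 3-kinase signaling, and LPA is known for its actions on fibroblasts, on vessel formation and on the movement of lymphocytes.

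The members occupied different ranges of expression. Levels are given as CPM, the counts of a gene divided by the total count of its tumor and scaled to a total of 1000000. The libraries were made from the 3′ ends of transcripts, so that a count does not grow with transcript length, and CPM were compared between genes without division by length. By the mean of log2(CPM + 1) over the 12 tumors Lpar6 lay above 61.5% of the tested genes, Enpp2 above 58.1%, Lpar1 above 47.6% and Lpar4 above 19.5%. The groups differed in this order, and in Con tumors Enpp2 was above Lpar6, with means of 73.0 and 25.9 CPM. The lowest and the highest tumor differed by 27.9-fold for Lpar4, by 20.3-fold for Enpp2, by 14.5-fold for Lpar1 and by 2.57-fold for Lpar6. Lpar3 had 10 counts in all, which lay in 3 tumors, with 2 counts in SFIH 1, 2 in PD 3 and 6 in Comb 3. Lpar2 and Lpar5 were listed at 0 in all 12 tumors, which allows a level of up to 0.0245 CPM over the 12 tumors together (3 counts of their summed total, for counting error only). For a single tumor that limit lay between 0.245 and 0.381 CPM.

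The windows around the start sites of the 3 receptors that passed the filter are shown because those receptors carry the measurements that follow. They are from RefSeq (GRCm38.p6), where 6 of the 7 members matched the promoter table and Enpp2 was not among them. Each window runs from 250 bases before the start site to 50 bases after it, 5′ to 3′ on the strand of the gene, and for Lpar1 the first of 3 windows is printed. Capitals mark matches on either strand to TATAAA as bound by TBP, CCAAT as bound by NF-Y, GGGCGG as bound by Sp1, GGAATG as bound by TEAD factors or TTCNNNGAA as bound by STAT factors.
Lpar1: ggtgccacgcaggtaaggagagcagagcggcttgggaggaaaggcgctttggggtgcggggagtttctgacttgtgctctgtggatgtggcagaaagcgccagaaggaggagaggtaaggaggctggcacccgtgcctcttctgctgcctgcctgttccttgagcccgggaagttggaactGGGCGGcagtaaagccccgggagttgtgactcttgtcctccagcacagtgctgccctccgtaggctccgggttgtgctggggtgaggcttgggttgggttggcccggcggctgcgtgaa
Lpar4: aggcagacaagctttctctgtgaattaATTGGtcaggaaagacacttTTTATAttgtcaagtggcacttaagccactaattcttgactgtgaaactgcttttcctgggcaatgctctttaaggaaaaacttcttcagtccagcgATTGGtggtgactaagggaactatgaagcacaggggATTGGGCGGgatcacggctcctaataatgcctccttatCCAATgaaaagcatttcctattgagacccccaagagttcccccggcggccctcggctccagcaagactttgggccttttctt
Lpar6: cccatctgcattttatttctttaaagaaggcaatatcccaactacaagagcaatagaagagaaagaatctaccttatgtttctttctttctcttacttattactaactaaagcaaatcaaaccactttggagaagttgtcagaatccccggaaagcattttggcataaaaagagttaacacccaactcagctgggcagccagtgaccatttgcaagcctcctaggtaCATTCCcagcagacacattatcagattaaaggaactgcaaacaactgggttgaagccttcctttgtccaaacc
The Lpar1 window lies at chr4:58553442-58553741 on the minus strand, the Lpar4 window at chrX:106920375-106920674 on the plus strand and the Lpar6 window at chr14:73237641-73237940 on the plus strand. The Lpar1 window held 14 CpG dinucleotides and 1 match to the Sp1 motif, and the second Lpar1 window held 37 CpG. The Lpar4 window held 6 CpG, 4 matches to the NF-Y motif, 1 to the TBP motif and 1 to the Sp1 motif, which shared bases with an NF-Y match. The Lpar6 window held 1 CpG and a single match, to the TEAD motif. Among all 32851 windows of the same length, with a median of 7 CpG, TATAAA was found in 13.6%, CCAAT in 37.4%, GGGCGG in 35.7%, GGAATG in 14.7% and TTCNNNGAA in 8.3%. These matches describe letters only.

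Depth was similar across the tumors, but 1 tumor stood apart. Totals ran from 7870741 to 12261032 counts, and ribosomal Rn45s took 4.28% to 17.1% of them. Comb 3 had the lowest TMM factor (the scaling factor of edgeR), 0.760 against 0.884 to 1.12 in the others. The summed level of 10 skeletal muscle markers was 5274 CPM in Comb 3, 689 CPM in Comb 1, 140 CPM in PD 1 and at most 50.7 CPM in the other tumors. Comb 3 also held 375 CPM of 8 skin markers, against at most 39.4 CPM elsewhere. The 9 epithelial markers summed to 4.60 to 22.3 CPM in 11 tumors and 92.9 CPM in Comb 3, and Cdx2, an intestinal transcription factor, had at most 3 counts in every tumor. Results that rest on Comb 3 are therefore given with and without it.

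Enpp2 was highest in Con and SFIH tumors and lowest in PD tumors, with Comb tumors between them. In Con 1, Con 2 and Con 3 its level was 83.1, 44.6 and 91.2 CPM, from 911, 429 and 914 counts. SFIH tumors had 63.8, 57.5 and 32.7 CPM. PD tumors had 6.88, 14.6 and 4.50 CPM, from 64, 115 and 43 counts. Every PD tumor thus lay below every Con tumor. The group means were 73.0 ± 24.9 CPM in Con and 8.66 ± 5.29 CPM in PD (SD, n = 3), a ratio of 0.119, and the gene was picked for this. Of all tested genes, 14.8% also had every PD tumor below every Con tumor. Comb tumors had 28.9, 11.7 and 19.5 CPM, which put all 3 below every Con and every SFIH tumor, and 2 of the 3 above every PD tumor.

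**Figure D1:**
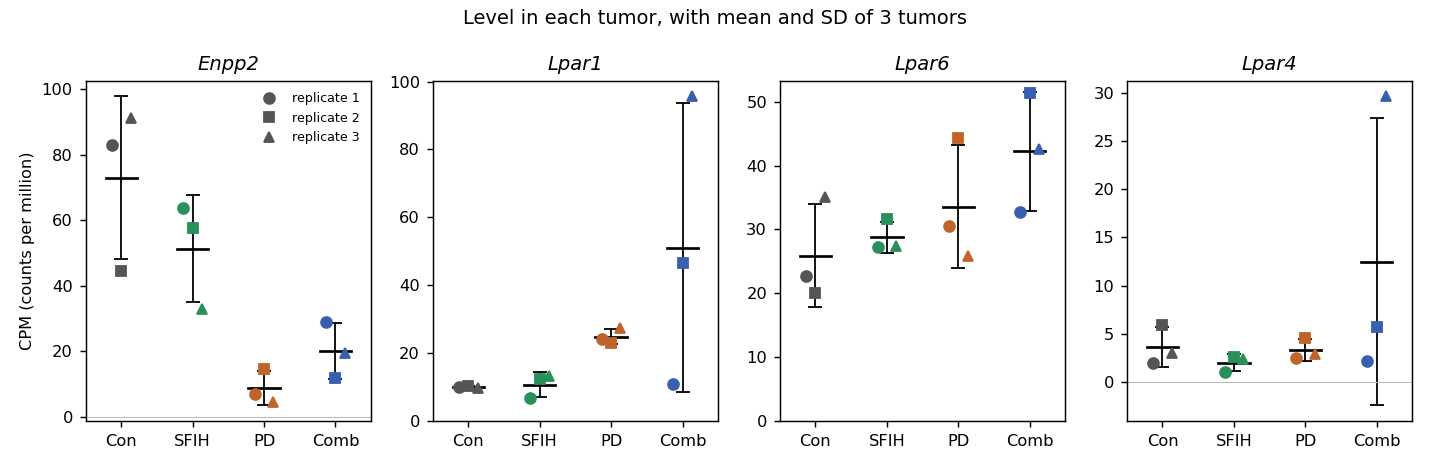
Level of Enpp2, Lpar1, Lpar6 and Lpar4 in CPM (y axis, linear, each panel with its own scale) in the Con, SFIH, PD and Comb groups (x axis). Symbols are single tumors, horizontal bars are means and whiskers are SD of 3 tumors, and the whisker of Lpar4 in Comb passes below 0 because of the spread of 2.18 to 29.6 CPM. All PD and Comb values of Enpp2 lie below the lowest Con value of 44.6 CPM, and the highest Lpar1 and Lpar4 values are those of Comb replicate 3.

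For Enpp2 only the comparisons without the PD group are given with a test. A level that is low in PD is low beside the other groups, so the Con and SFIH values may share in the choice. The fit also took its spread from all 4 groups. The p-values of Enpp2 below are therefore not free of the choice of the gene. The mean in SFIH tumors was 51.3 ± 16.4 CPM, and 1 of 3 SFIH tumors lay below every Con tumor. The difference from Con, a log2 fold change of -0.53 (SE 0.45), had an adjusted p of 0.9998 in the quasi-likelihood test of edgeR. The Comb mean was 20.03 ± 8.63 CPM, and the log2 fold change against Con was -1.60 (SE 0.46, adjusted p = 0.0752 by edgeR), just outside the threshold of 0.05. DESeq2, run as an alternative, placed the same difference past it with a log2 fold change of -1.58 (adjusted p = 0.0128). Non-overlap of this kind was common, since 22.2% of the tested genes had every Comb tumor below every Con tumor. Against SFIH the log2 fold change was -1.08 (SE 0.46, adjusted p = 0.237 by edgeR), and 14.9% of the tested genes had every Comb tumor below every SFIH tumor. The Comb comparisons share the Con and SFIH tumors used elsewhere and are not independent of each other. In whole tumor RNA, fewer cells of a type and less RNA per cell cannot be told apart.

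Of 14 lists of cell type markers, 2 had a summed level lower in every PD than in every Con tumor, as did Enpp2 and 14.8% of the tested genes. In another 2, those of fibroblasts and of Schwann cells and nerve, every PD tumor was higher. The 8 B and plasma cell markers summed to 89.3 to 101.2 CPM in Con, 61.3 to 76.2 CPM in PD and 60.6 to 125 CPM in Comb, and the skin list to 6.98 to 10.5 CPM in Con and 5.13 to 6.78 CPM in PD. Of the 8 B and plasma cell markers 5 passed the filter. At an unadjusted p under 0.05 by edgeR, 1 of these was lower and 0 were higher in PD than in Con. Of the 8 skin markers 3 passed the filter, with 0 lower and 0 higher, beside 3.99% of all genes in either direction. Adipocyte and endothelial levels overlapped between these groups. The 12 adipocyte markers, of which 8 passed the filter, summed to 77.8 to 104 CPM in Con and 81.6 to 130 CPM in PD, and the 12 endothelial markers to 131 to 158 CPM in Con and 133 to 177 CPM in PD. In Comb tumors the ranges were 97.6 to 1098 CPM for adipocyte and 155 to 289 CPM for endothelial markers. The part of cell composition in the Enpp2 levels was not tested. In the annotation Enpp2 overlaps exons of Gm26684, a noncoding RNA on the opposite strand. Whether the counting used strand is not stated in the sources used here, and reads of the pair cannot be told apart.

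Lpar1, the receptor best known from fibroblasts and nerve sheath cells, ran opposite to Enpp2 in PD and Comb against Con. It did not do so in Comb against PD, where both genes had the higher mean in Comb. Its level was 10.0, 10.4 and 9.58 CPM in the Con tumors, 6.61, 12.5 and 13.1 CPM in the SFIH tumors and 24.1, 23.0 and 27.3 CPM in the PD tumors. Comb tumors had 10.9, 46.6 and 95.7 CPM, from 110, 459 and 1051 counts. All PD tumors lay above all Con tumors, as did all Comb tumors, although Comb 1 exceeded the highest Con tumor only narrowly. Of all tested genes, 5.76% had every PD tumor and 7.60% every Comb tumor above every Con tumor. Means for Con, SFIH, PD and Comb were 10.0 ± 0.414, 10.7 ± 3.58, 24.8 ± 2.24 and 51.1 ± 42.6 CPM (SD, n = 3).

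None of the Lpar1 differences passed the adjusted threshold of edgeR. PD exceeded Con by a log2 fold change of 1.40 (SE 0.64), with an adjusted p of 0.9998 by edgeR. The unadjusted p of that difference was under 0.05, as for 3.99% of the tested genes in that comparison. The SE draws on the spread of all 4 groups, and the Comb tumors spread most. Without Comb 3 the log2 fold change stayed at 1.40 (SE 0.46, adjusted p = 0.382 by edgeR). DESeq2 then gave 1.41 with an adjusted p of 0.118. Comb exceeded Con by 2.75 (SE 0.66, adjusted p = 0.0665 by edgeR) and SFIH by 2.64 (SE 0.66, adjusted p = 0.128 by edgeR). DESeq2 called both, with adjusted p-values of 0.000604 and 0.00185. Without Comb 3 the log2 fold change against Con was 1.75 in edgeR, and 1.78 in DESeq2 with an adjusted p of 0.0168. Against SFIH it was then 1.65 in edgeR, and the call of DESeq2 was lost (adjusted p = 0.0737). Comb against PD gave 1.34 (SE 0.63, adjusted p = 0.282 by edgeR), and 0.35 without Comb 3. SFIH and Con differed by 0.10 (SE 0.63).

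Fibroblast markers moved with Lpar1. The 12 markers, all tested, summed to 2325 to 3008 CPM in Con, 1220 to 3630 CPM in SFIH and 4225 to 6593 CPM in PD. In Comb 1, Comb 2 and Comb 3 they reached 3135, 10835 and 18768 CPM. The order of the Comb tumors was the same for the markers and for Lpar1, and 11 of the 14 marker lists had that order, those of macrophages, T and NK cells, adipocytes, endothelium and Schwann cells among them. The 8 Schwann cell and nerve markers summed to 3.02 to 6.48 CPM in Con and 6.88 to 28.5 CPM in PD, with no overlap, and to 2.28, 20.2 and 34.2 CPM in the Comb tumors. Of the 12 markers, 11 were higher in Comb than in Con at an unadjusted p under 0.05, beside 25.3% of all genes in either direction, and 2 were higher in PD, beside 3.99%. The part of these cell types in the Lpar1 difference was not tested.

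**Figure D2:**
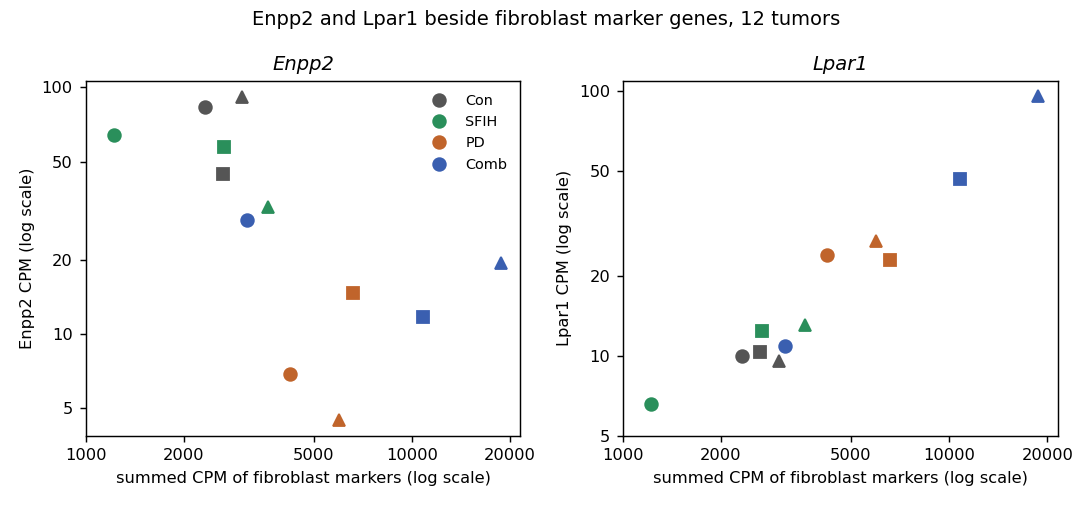
Level of Enpp2 (left) and Lpar1 (right) in CPM against the summed CPM of 12 fibroblast markers, both axes logarithmic. Each point is 1 of 12 tumors, colored by group, with circles, squares and triangles for replicates 1, 2 and 3. Lpar1 runs from 6.61 CPM in SFIH 1, which has the lowest marker sum, to 95.7 CPM in Comb 3, which has the highest, while the PD and Comb tumors hold the lowest Enpp2 levels.

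Lpar6, a receptor linked to hair growth and found widely on endothelial and blood cells, was the most abundant receptor in most tumors and varied least. Its level was 22.7, 19.98 and 35.0 CPM in Con, 27.2, 31.6 and 27.4 CPM in SFIH, 30.5, 44.3 and 25.8 CPM in PD and 32.8, 51.4 and 42.5 CPM in Comb. The means followed that order, from 25.9 ± 8.01 through 28.8 ± 2.46 and 33.6 ± 9.62 to 42.2 ± 9.32 CPM (SD, n = 3), and neighbors in this order overlapped. All Comb tumors lay above all SFIH tumors, as for 4.65% of the tested genes. Against Con, 2 of 3 Comb tumors lay above every Con tumor in CPM, and all 3 did so once CPM were scaled by TMM, as for 11.7% of the tested genes.

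The Lpar6 difference between Comb and Con was a log2 fold change of 1.02 (SE 0.30, adjusted p = 0.0806 by edgeR), with an adjusted p of 0.0185 in DESeq2 and of 0.0815 in DESeq2 without Comb 3, where the fold change went from 1.04 to 0.92. Against SFIH it was 0.86 (SE 0.30, adjusted p = 0.172 by edgeR). PD against Con gave 0.50 (SE 0.30), Comb against PD 0.52 (SE 0.30) and SFIH against Con 0.15 (SE 0.30), all with an unadjusted p above 0.05 by edgeR. Lpar6 lies inside Rb1 on the opposite strand, with overlapping exons, and Rb1 had 86 to 264 counts in these tumors. Since the strand setting is not stated in the sources used here, reads of Lpar6 and Rb1 cannot be told apart where they overlap.

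Lpar4, a receptor known from vessel formation, was low in every tumor but Comb 3. Con tumors had 22, 57 and 30 counts (2.01, 5.93 and 2.99 CPM), SFIH tumors 13, 32 and 23 (1.06, 2.64 and 2.35 CPM) and PD tumors 23, 36 and 28 (2.47, 4.57 and 2.93 CPM). Comb tumors had 22, 56 and 325 counts (2.18, 5.69 and 29.6 CPM). Every pair of groups overlapped. The Comb mean of 12.5 ± 14.9 CPM (SD, n = 3) rested on that single tumor. Comb 3 was also the highest of the 12 in muscle, skin, macrophage (11637 CPM), neutrophil (727 CPM) and T and NK cell (288 CPM) markers, whose part was not tested.

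The Lpar4 fold changes followed that tumor. Comb against Con gave 2.20 on the log2 scale (SE 0.89, adjusted p = 0.155 by edgeR) and 0.31 without Comb 3. Against PD it was 2.23 (SE 0.89, adjusted p = 0.254 by edgeR) and 0.34 without Comb 3. Against SFIH it was 3.06 (SE 0.92, adjusted p = 0.134 by edgeR) and 1.17 without Comb 3, and DESeq2 called it with all tumors (adjusted p = 0.00906) but not without Comb 3 (adjusted p = 0.516). The interaction between both treatments, the part of the Comb difference beyond the sum of both single treatments on the log2 scale, was 3.08 (SE 1.25, adjusted p = 0.894 by edgeR) for Lpar4 and 1.19 without Comb 3. It was 1.24 (SE 0.88) for Lpar1 and 0.36 (SE 0.43) for Lpar6, with the same adjusted p, and 0.24 and 0.25 without Comb 3.

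**Figure D3:**
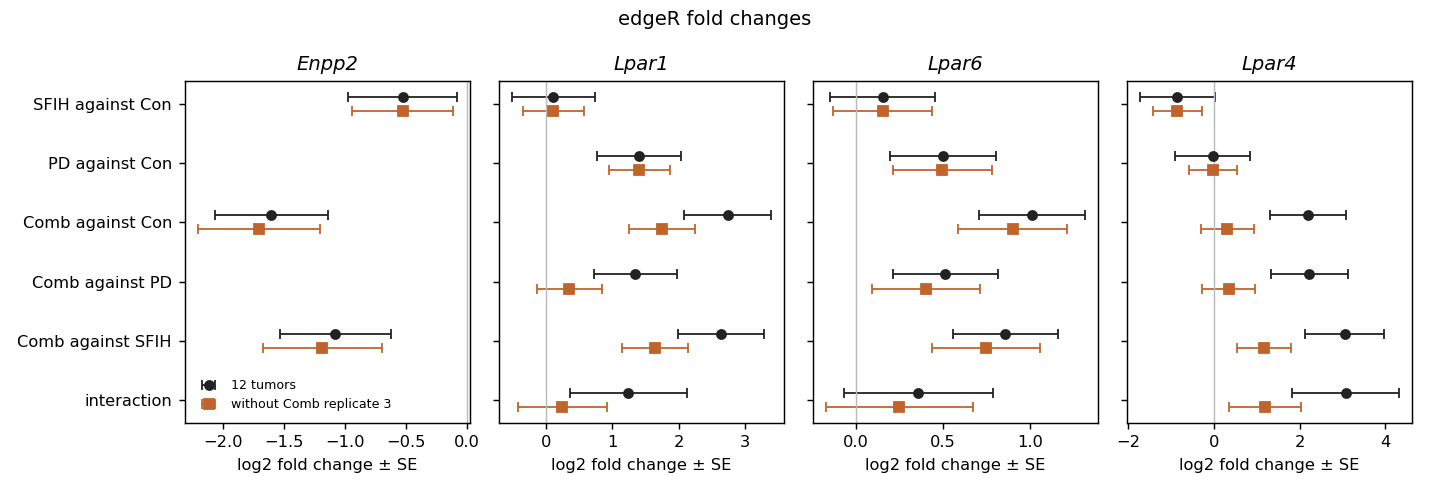
edgeR log2 fold changes (x axis, each panel with its own scale) with SE as whiskers for the 6 comparisons (y axis), from all 12 tumors (black circles) and without Comb replicate 3 (orange squares). Comparisons of Enpp2 that involve PD are not drawn because the gene was picked on that group. Lpar4 in Comb against Con falls from 2.20 to 0.31 without that tumor, and Enpp2 stays at -1.60 against -1.71.

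The calls were read beside those over the whole table. In each of the 6 comparisons edgeR called none of the 3 tested receptors and 0% of the 13464 tested genes. At an unadjusted p under 0.05, the background was 2.25% for SFIH against Con, 25.3% for Comb against Con, 18.0% for Comb against PD, 19.0% for Comb against SFIH and 2.55% for the interaction. DESeq2 called 0.0298% of genes for SFIH against Con, 0.0447% for PD against Con, 14.9% for Comb against Con, 3.23% for Comb against PD, 8.62% for Comb against SFIH and 0.00745% for the interaction. Among the receptors, DESeq2 called 2 in Comb against Con (Lpar1 and Lpar6), 2 in Comb against SFIH (Lpar1 and Lpar4) and none in the other comparisons. Without Comb 3 it called 1 receptor, Lpar1, in Comb against Con, beside 5.44% of all genes.

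Comb 1, whose Lpar1 level was close to Con, weighed on the calls as well. Without it edgeR called Enpp2, Lpar1, Lpar4 and Lpar6 in Comb against Con, beside 28.5% of all genes. It then also called Lpar1 and Lpar4 in Comb against PD, beside 15.2% of genes, and Lpar1, Lpar4 and Lpar6 in Comb against SFIH, beside 22.5%. The members thus crossed the threshold together with a large share of the table.

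The make-up of the receptor pool differed between tumors. Summed receptor levels were 39.6 ± 7.002 CPM in Con, 41.5 ± 5.92 CPM in SFIH, 61.8 ± 8.80 CPM in PD and 106 ± 61.3 CPM in Comb (SD, n = 3). Lpar6 made up 64.7 ± 9.31% of receptor counts in Con and 69.8 ± 7.09% in SFIH tumors, against 53.7 ± 7.88% and 48.8 ± 23.1% in PD and Comb tumors. Lpar1 made up 25.9 ± 4.99%, 25.4 ± 5.97%, 40.9 ± 8.34% and 41.9 ± 16.8% in the same order. In PD 3 and Comb 3 Lpar1 exceeded Lpar6, with 1.06 and 2.25 counts of Lpar1 per count of Lpar6, and in the other 10 tumors Lpar6 was the larger. Comb 1, with 71.5% Lpar6, lay within the range of the Con and SFIH tumors, 55.0% to 77.7%.

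**Figure D4:**
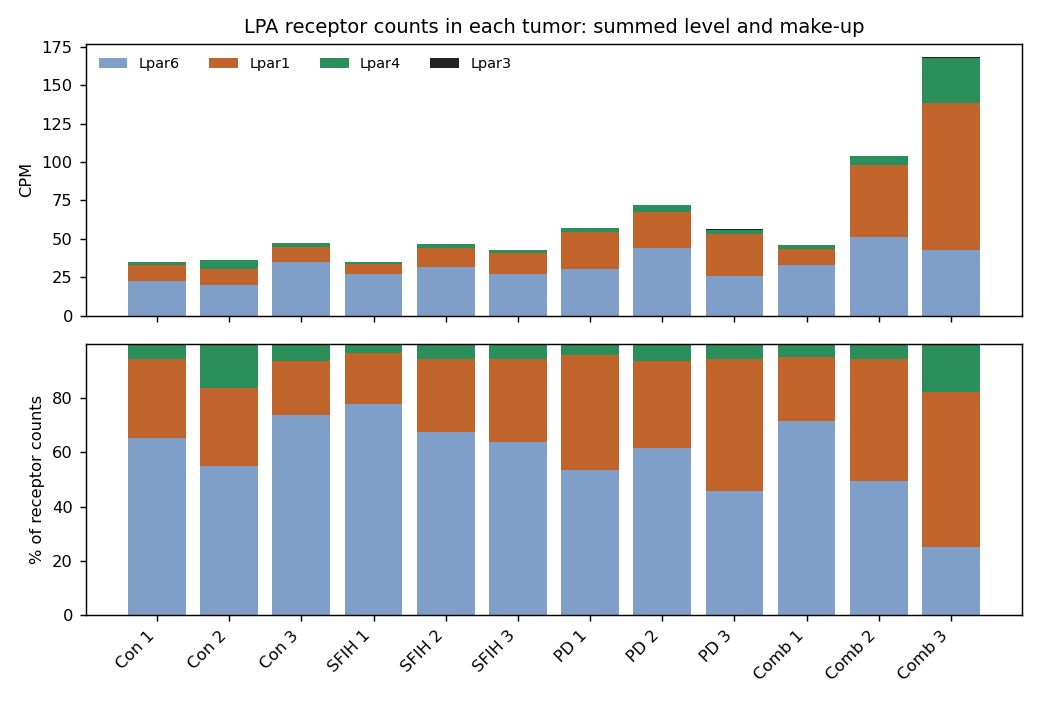
Summed CPM of the LPA receptors (upper panel) and their shares of all receptor counts in percent (lower panel) in each of the 12 tumors. Colors stand for Lpar6, Lpar1, Lpar4 and Lpar3, and Lpar2 and Lpar5 had no counts. The summed level runs from 34.8 CPM in Con 1 to 168 CPM in Comb 3, where the Lpar6 share is 25.3%.

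Enpp2 and its receptors were also compared as a ratio within each tumor, which does not depend on library scaling. Con tumors had 2.39, 1.23 and 1.92 counts of Enpp2 per receptor count, SFIH tumors 1.82, 1.23 and 0.764, PD tumors 0.121, 0.203 and 0.0799 and Comb tumors 0.631, 0.113 and 0.116. PD and Comb tumors therefore held fewer Enpp2 counts than receptor counts, while 5 of the 6 Con and SFIH tumors held more. The Enpp2 part of this ratio was the value that chose the gene in the PD group.

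Across the 12 tumors the members did not move as one block. Pearson correlations of log2(CPM + 1) were -0.67 for Enpp2 with Lpar1 (-0.84 without Comb 3), -0.25 for Enpp2 with Lpar4 and -0.32 for Enpp2 with Lpar6. Among receptors they were 0.82 for Lpar1 with Lpar4 (0.58 without Comb 3), 0.64 for Lpar1 with Lpar6 and 0.45 for Lpar4 with Lpar6. These are descriptions over points that share libraries, group and depth, and those of Enpp2 include the PD tumors on which the gene was picked.

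Among 10601 tested genes with at least 50 counts on average, the pattern of Enpp2 was most like those of Gpr108 (r = 0.93), Aldoc (0.92), Acy3 (0.92), Syf2 (0.91) and Slc38a1 (0.91) over the 12 tumors. The PD tumors on which Enpp2 was picked enter this measure, so that genes low in PD come first by construction. Aldoc, a brain-type aldolase of glycolysis, had group means of 30.6 and 37.7 CPM in Con and SFIH against 4.70 and 9.02 CPM in PD and Comb. Sumf1, the enzyme that activates sulfatases, was the most opposed (r = -0.87), followed by Tef (-0.85) and Ubash3b (-0.85). The genes most like Lpar1 encode matrix proteins, namely Sparc (0.97), Col3a1 (0.97) and Col1a1 (0.97), and the same genes had 0.95, 0.94 and 0.95 without Comb 3. Those most like Lpar4 were Anpep (0.95), Ctsl (0.94) and Mettl23 (0.94), and without Comb 3 these fell to 0.78, 0.78 and 0.74. Arid4a (0.93), Klra2 (0.93) and Sirpb1b (0.91) were most like Lpar6.

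The rest of the LPA pathway was taken from 7 lists of 96 genes, of which 78 passed the filter. edgeR called 0 of the 78 in all 6 comparisons. At an unadjusted p under 0.05, 19 were higher and 9 lower in Comb than in Con, together 35.9% beside 25.3% of all genes, 11 and 4 in Comb against PD (19.2% beside 18.0%), 14 and 3 in Comb against SFIH (21.8% beside 19.0%), 6 and 1 in PD against Con (8.97% beside 3.99%), 1 and 0 in SFIH against Con (1.28% beside 2.25%), and 1 and 2 in the interaction (3.85% beside 2.55%). DESeq2 called 14 higher and 4 lower in Comb against Con (23.1% beside 14.9% of all genes), 7 higher in Comb against SFIH (8.97% beside 8.62%) and none in the other comparisons. Without Comb 3 DESeq2 called 5 (6.41% beside 5.44%) and 0 (beside 0.691%), and 1 each in SFIH against Con (1.28% beside 0.592%) and PD against Con (1.28% beside 0.500%). The median log2 fold change of the 78 in Comb against Con was 0.25, beside -0.03 over all tested genes, and 0.06 without Comb 3.

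Of 11 tested genes of other routes to LPA, 8 had a lower and 3 a higher level in Comb than in Con, with a median log2 fold change of -0.26. Without Comb 3, 10 were lower and 1 was higher, with a median of -0.55. At an unadjusted p under 0.05 with all tumors, 2 were lower and 1 was higher in Comb than in Con, a share close to the 25.3% of all genes. In PD against Con 9 were on the lower and 2 on the higher side, with a median of -0.46. Comb against PD gave 6 higher and 5 lower, or 5 higher and 6 lower without Comb 3. Gdpd1 and Gdpd3 are lysophospholipases D of the glycerophosphodiester phosphodiesterase family. Gdpd1 had 51.4 ± 4.31 CPM in Con, 36.3 ± 2.58 CPM in SFIH, 22.1 ± 8.88 CPM in PD and 19.4 ± 11.6 CPM in Comb (SD, n = 3). Its log2 fold change was -1.10 in PD (SE 0.38, adjusted p = 0.9998 by edgeR) and -1.21 in Comb (SE 0.38, adjusted p = 0.0873 by edgeR) against Con. The value in Comb was -0.91 without Comb 3. Gdpd3 went from 2.98 ± 0.739 CPM in Con to 8.75 ± 4.61 CPM in Comb, a log2 fold change of 1.90 (SE 0.54, adjusted p = 0.0747 by edgeR), and 1.38 without Comb 3. DESeq2 called Gdpd1 (adjusted p = 0.0228) and Gdpd3 (adjusted p = 0.0087) in Comb against Con, and both calls were lost without Comb 3. Without that tumor DESeq2 called 1 gene of this list, on the lower side, in PD against Con, beside 0.500% of all genes.

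Within the family of autotaxin, Enpp4, a membrane-bound relative that hydrolyses nucleotides, had 2.91 ± 2.11 CPM in Con, 4.86 ± 0.344 CPM in SFIH, 7.76 ± 1.89 CPM in PD and 10.4 ± 5.41 CPM in Comb (SD, n = 3). Its log2 fold change against Con was 1.55 in PD (SE 0.57, adjusted p = 0.9998 by edgeR) and 2.18 in Comb (SE 0.58, adjusted p = 0.0686 by edgeR), and DESeq2 called the latter (adjusted p = 0.00334). Enpp1, which makes pyrophosphate from nucleotides, had 4.47 ± 1.19 CPM in PD and 12.4 ± 9.57 CPM in Comb, with a log2 fold change of 1.75 that was 0.77 without Comb 3.

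Enzymes that consume or acylate LPA gave 7 higher and 7 lower levels among 14 tested genes in Comb against Con. The acyltransferase gene Lclat1 had 54.5 ± 12.0 CPM in Con and 25.3 ± 12.1 CPM in Comb (SD, n = 3), a log2 fold change of -0.89 (SE 0.27, adjusted p = 0.0837 by edgeR), with an adjusted p of 0.0202 in DESeq2, a call that was lost without Comb 3, where the log2 fold change of edgeR was -0.62. Mboat2, another acyltransferase, had 42.2 ± 3.62 CPM in Con (SD, n = 3) and 31.6, 11.2 and 1.82 CPM in the Comb tumors, with a log2 fold change of -1.37 (SE 0.59, adjusted p = 0.179 by edgeR) that was -0.86 without Comb 3. Ppap2c, a lipid phosphate phosphatase, had 59.7 ± 6.43 CPM in SFIH and 31.0 ± 18.8 CPM in Comb, a log2 fold change of -0.74 that was -0.45 without Comb 3.

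Downstream of the receptors, 21 genes of G protein and YAP signaling had a median log2 fold change of 0.10 in Comb against Con, with 11 higher and 10 lower, and of -0.01 with 10 higher and 11 lower without Comb 3. Pik3cg, the phosphoinositide 3-kinase subunit that answers to G protein-coupled receptors in blood cells, had 7.001 ± 0.672 CPM in PD and 13.2 ± 4.35 CPM in Comb (SD, n = 3), a log2 fold change of 1.10 (SE 0.36, adjusted p = 0.243 by edgeR) that was 1.05 without Comb 3. Wwtr1, which encodes the YAP partner TAZ, had 159 ± 30.8 CPM in PD and 88.7 ± 32.4 CPM in Comb, and the phospholipase gene Plcb3 had 18.2 ± 3.39 and 9.41 ± 5.68 CPM. Their log2 fold changes were -0.69 and -0.85, or -0.49 and -0.58 without Comb 3. Srf and Gna11 gave interactions of -0.98 (SE 0.41) and -0.73 (SE 0.26) with adjusted p-values of 0.894 by edgeR. Of 13 YAP and SRF target genes, 11 had a higher level in PD than in Con, with a median log2 fold change of 0.29. Comb against Con gave 7 higher and 6 lower, with a larger median of 0.67 (0.37 without Comb 3). Comb against PD gave 6 higher and 7 lower, with a median of -0.06. Amotl2 was the 1 gene of the list with an unadjusted p under 0.05 in PD against Con, where 3.99% of all genes had one, at 0.89 (SE 0.34, adjusted p = 0.9998 by edgeR).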

How the data were processed

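Total RNA of 12 MC38 tumors was sequenced as 3′ mRNA libraries, and the authors deposited raw counts per gene symbol. The aligner, genome build, annotation and strand setting are not given in the sources used here. Columns were matched to tumors by the names in the labels, and 0 columns were left unmapped. CPM were counts divided by the column total and scaled to 1000000.

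Genes with low counts were removed with filterByExpr, the 4 groups were fitted together with edgeR 4.0.16 (R 4.3.3), with TMM scaling and the quasi-likelihood F test, and p-values were adjusted by the Benjamini-Hochberg method over all 13464 genes. The 5 pairwise comparisons and the interaction were tested two-sided. The procedure was tested on simulated data. Alternatives were DESeq2 1.42.0, other scalings and filters, removal of Rn45s, a replicate block, fits of the compared groups alone and leaving out each tumor. Skipping Comb replicate 3 in DESeq2 was chosen after seeing the data.

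The members, the 7 pathway lists and the 14 marker lists were chosen with earlier results of these data known. Pathway genes were named where the adjusted p was under 0.05 or, with none, as up to 3 per direction with an unadjusted p under 0.05, the largest fold change and at least 50 counts on average. One gene named by this rule is not reported here. Likeness was the Pearson correlation of log2(CPM + 1), with the 5 highest and 3 lowest genes for Enpp2 and the 3 highest for each receptor. Depth was 7870741 to 12261032 counts per tumor, and limits from 3 counts cover counting error only.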

Additional observations from a re-analysis of the deposited data

How the results depend on the processing

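Without TMM the median log2 fold change of all genes in Comb against Con was -0.29 in place of -0.03, and other changes are relative to that shift. No edgeR call of a receptor, of Enpp2 or of a pathway gene changed under the other scalings and filters, with Rn45s left out, with the compared groups fitted alone or with the replicate block. DESeq2 moved 2 receptors, 18 pathway genes and Enpp2 (-1.58) past the threshold in Comb against Con, where it called 14.9% of all genes. In Comb against SFIH it moved 2 receptors and 7 pathway genes, beside 8.62% of all genes. DESeq2 without Comb replicate 3, chosen after seeing the data, called 1 receptor and 5 pathway genes in Comb against Con (5.44% of all genes), 1 pathway gene in SFIH against Con (0.592%) and 1 in PD against Con (0.500%), and gave -1.70 for Enpp2 in Comb against Con. The cause was not tested.

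Leaving out 1 tumor at a time gave 0 to 3 called receptors in Comb against Con, 0 to 2 in Comb against PD and 0 to 3 in Comb against SFIH, and 0 to 31, 0 to 19 and 0 to 24 called pathway genes. The upper ends came without Comb replicate 1, where 28.5%, 15.2% and 22.5% of all genes were called. The log2 fold change of Enpp2 in Comb against Con ran from -1.85 to -1.35, that of Lpar1 in SFIH against Con from -0.14 to 0.37 and that of Lpar4 in PD against Con from -0.38 to 0.54.

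Same-numbered tumors did not deviate together (correlations of -0.34 to 0.45, 6 of 18 over 0.1, and 3 of 12 tumors closest to their own number). The replicate block called 0 genes in each comparison, and turned Lpar1 in SFIH against Con to -0.042 and Lpar4 in PD against Con to 0.049. Lpar2, Lpar3 and Lpar5 had too few counts for a test.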

Other observations

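Receptors for lipids related to LPA were also counted. Of 9 tested receptors for sphingosine 1-phosphate, lysophosphatidylserine and similar lipids, 8 had a higher level in Comb than in Con, with a median log2 fold change of 2.33, or 0.99 without Comb replicate 3. edgeR called 0 of them, 7 had an unadjusted p under 0.05 (25.3% of all genes did), and DESeq2 called 6 (14.9% of all genes), or 2 without Comb replicate 3 (5.44% of all genes). P2ry10, a lysophosphatidylserine receptor of lymphocytes, had 2.64 ± 0.454 CPM in Con, 3.58 ± 1.18 CPM in SFIH, 7.21 ± 3.19 CPM in PD and 22.2 ± 19.6 CPM in Comb (SD, n = 3). Its log2 fold change in Comb against Con was 3.47 (SE 0.73, adjusted p = 0.0665 by edgeR) and 2.32 without Comb replicate 3. Gpr34, named after its values were seen, had 1.19, 4.67 and 34.5 CPM in the Comb tumors and at most 3.05 CPM in the other 9. S1pr1, which guides lymphocytes out of lymph nodes, had 10.9, 22.7 and 25.9 CPM in Comb and 8.21, 8.74 and 16.9 CPM in Con, and S1pr2 was the receptor without a higher level (log2 fold change -0.08, SE 0.20).

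Sums of T and NK cell and of macrophage markers also had a higher mean in Comb than in Con tumors. The 9 markers of T and NK cells found summed to 22.8 to 44.0 CPM in Con, 41.9 to 104 CPM in PD and 38.0, 120.0 and 288 CPM in the Comb tumors, and the 12 macrophage markers to 688 to 1218 CPM in Con and 1454, 3830 and 11637 CPM in Comb. Their part in the receptor levels was not tested. Of 6 tested genes of sphingosine 1-phosphate metabolism, all 6 had a higher level in Comb than in Con, with a median log2 fold change of 0.67. Without Comb replicate 3 it was 5 of 6, with a median of 0.31 and Sphk1 at -0.35. With all tumors there were 0 calls by edgeR, 1 gene with an unadjusted p under 0.05 (25.3% of all genes had one) and 1 call by DESeq2 (14.9% of all genes), which was lost without that tumor.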
